A study of Mus musculus with 8 samples.

Results

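UNC0642-treated Setdb1 knockout (KO) mouse embryonic stem cells (mESCs) were compared with untreated WT mESCs, that is, cells lacking one H3K9 methyltransferase and exposed to an inhibitor of a further pair against cells with neither change. The comparison used 4 of the 8 RNA-seq libraries of the series, 2 replicates of each condition, chosen by their titles. The other 4 libraries, from Setdb1 KO mESCs and from UNC0642-treated mESCs without the deletion, entered the same statistical fit and are quoted only beside the combined condition. All 4 conditions came from a single mESC line, #33-6, in which Setdb1 can be deleted by 4-hydroxytamoxifen (4-OHT), grown on gelatin with LIF. For the combined condition the labels give 800 nM 4-OHT for 2 days and then 2 µM UNC0642 for 3 days, Setdb1 KO mESCs had 800 nM 4-OHT for 5 days, and UNC0642-treated mESCs had 2 µM UNC0642 for 3 days. The protocol text of the labels speaks of 5 days of 4-OHT throughout. WT mESCs had no 4-OHT, so an effect of 4-OHT itself cannot be told apart from the loss of Setdb1. The study's methods call the replicates biological, and the labels do not say how the cultures were separated, so the p-values below measure the spread between these libraries.

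SETDB1 places trimethylation on lysine 9 of histone H3 (H3K9) and is best known for silencing endogenous retroviruses and, together with DNA methylation and other repressors, germline genes. G9a (encoded by Ehmt2) and GLP (Ehmt1) form a heterodimer that places H3K9 dimethylation, a mark spread over large silent domains. UNC0642 blocks the catalytic site that G9a and GLP have in common and does not remove the proteins. In mESCs these marks keep tissue-restricted and early embryonic genes off, whereas genes for sterol synthesis, glycolysis and the like are expressed in WT mESCs.

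The deleted gene was checked first. Setdb1 (chr3:95323525-95357202 in GRCm38) gave 169 and 127 CPM (counts per 1000000 counts of the scaled library) in the WT libraries and 61.1 and 34.1 CPM in the UNC0642-treated Setdb1 KO libraries. Both treated KO values lay below both WT values, with a log2 fold change (log2FC, here and below ± SE) that passed edgeR's quasi-likelihood test with the replicate number as a block (log2FC -1.67 ± 0.28, adjusted p = 0.00593). Without the block the adjusted p of Setdb1 was 0.0746. Counts were deposited per gene, so the deleted exons could not be separated from the rest of the transcript. Ehmt2 gave 99.01 and 200.4 CPM in WT and 60.6 and 61.6 CPM in the treated KO (log2FC -1.20 ± 0.28, adjusted p = 0.0235), and Ehmt1 gave 80.99 and 97.8 CPM in WT and 76.1 and 59.2 CPM in the treated KO (log2FC -0.42 ± 0.24, adjusted p = 0.267). Of 19 H3K9 methyltransferases and partners tested, Setdb1 and Ehmt2 fell at least 2-fold, and Atf7ip, the partner that stabilises SETDB1, and its paralogue Atf7ip2 rose by 1.31 and 1.44 on the log2 scale. No member of that list was called without the block.

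Library totals ranged from 11702590 to 26807807 counts over the 8 libraries, with 11702590 and 25121876 in WT and 11897456 and 26250060 in the treated KO, so that replicate 1 was the shallower library in both. Markers of mESCs were present in all 4 libraries: the summed level of 7 markers was 2222 and 3589 CPM in WT and 2981 and 4629 CPM in the treated KO, and Pou5f1 alone gave 567 to 1197 CPM. The 9 fibroblast markers summed to 9.75 and 20.2 CPM in WT and 12.9 and 20.8 CPM in the treated KO, 6 trophoblast markers to 21.6 and 22.2 against 13.5 and 5.55 CPM, and 6 endoderm markers to 7.92 and 33.9 against 14.7 and 13.6 CPM. The 7 primed and germ layer markers summed to 84.7 and 59.5 CPM in WT and 155 and 192 CPM in the treated KO, and the part of such cells in the results was not tested. No defining marker was at 0 in all 4 libraries, and of the fibroblast markers Lum was at 0 in both WT libraries while Dcn stayed at or under 0.415 CPM. Within these bulk samples a change in the share of cells that express a gene and a change in RNA per cell cannot be told apart.

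Of 15313 genes tested, 612 (4.00%) were raised over 10-fold at an adjusted p under 0.05, 576 (3.76%) were raised 2- to 10-fold, 953 (6.22%) were lowered 2- to 10-fold and 93 (0.607%) were lowered over 10-fold. Moderately lowered genes were the most numerous class. The raised groups differed in their starting level. Genes raised over 10-fold had a median of 0.0977 CPM in WT and 4.24 CPM in the treated KO, and 308 of the 612 had at most 3 counts in each WT library. Genes raised 2- to 10-fold went from a median of 8.27 to 28.3 CPM, and genes lowered 2- to 10-fold from 20.8 to 6.29 CPM. Within replicate 1 and replicate 2 the median log2 differences were 6.09 and 5.11 for genes raised over 10-fold and 1.74 and 1.95 for the moderately raised. They were -1.63 and -1.70 for the moderately lowered and -4.62 and -3.74 for those lowered over 10-fold. Since the classes were called from these same libraries, the shared direction follows largely from the selection.

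**Figure D1:**
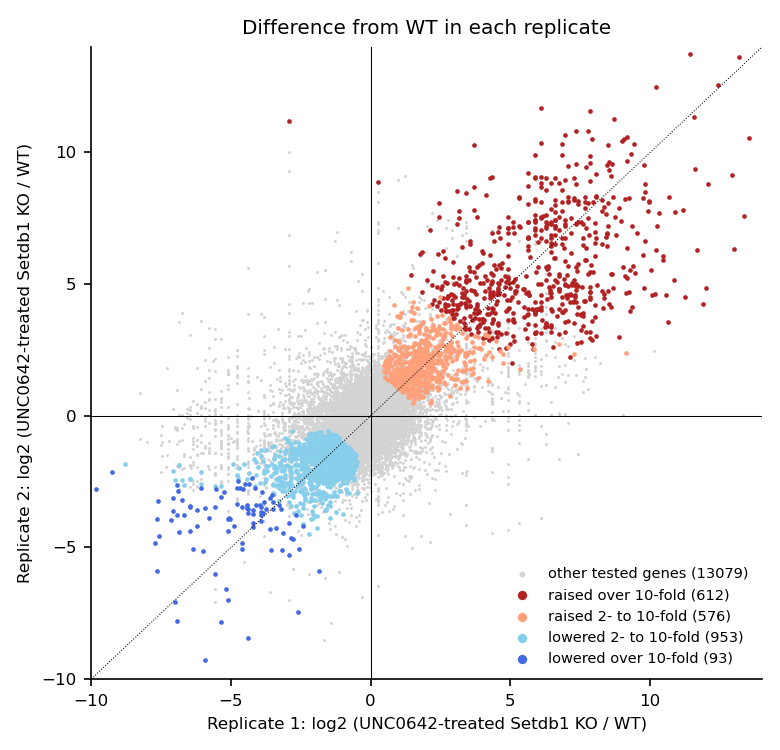
Each point is one tested gene, with its log2 difference between UNC0642-treated Setdb1 KO and WT mESCs in replicate 1 on the x axis and in replicate 2 on the y axis; colours give the 4 called groups (612, 576, 953 and 93 genes), grey the other tested genes, and the dotted line equality. The called genes lie at the upper right and lower left with few exceptions, which follows largely from calling them in these same libraries.

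The counts depend on the pairing of replicates. Without the replicate block 399, 73, 51 and 31 genes were called in the 4 groups, of which 397, 70, 50 and 31 were in the same group with the block, so most of the moderate changes were not called without it. Without replicate 2 of the treated KO, the deeper library, the counts were 254, 109, 47 and 18, and without its replicate 1 they were 465, 365, 473 and 61. Scaling by total counts alone, which moved the median of all genes by -0.18 on the log2 scale, changed the share of raised genes among the called ones from 53.2% to 40.1%. At the borders, Gm1995 was raised 10.0-fold and Ly96 9.98-fold, Zfp433 2.003-fold and Dph5 1.99-fold, while Atp10a was lowered 10.1-fold and Eps8l3 9.94-fold, Hirip3 2.0003-fold and Ppard 1.999-fold, which were differences well within their SEs.

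The raised and the lowered genes were next read by function. Over all genes tested 7.76% were raised and 6.83% were lowered at least 2-fold, and the list counts below are read against these shares and against a median log2 fold change of -0.08. Of lists nearly all of whose members were tested, two-cell stage genes had the highest raised share (24 of 25 tested, 26 in the files), and cholesterol and fatty acid synthesis and glycolysis and hypoxia had the highest lowered shares. In lists that are mostly silent in WT only some members passed the expression filter, largely through the libraries in which they were high, as with 7 of 13 Clec2 and Klrb1 lectins, 46 of 1513 chemosensory receptors and 8 of 63 placental genes. Their raised shares are set by that filter and are not to be read against 7.76%. In part the same holds for other lists with untested members, such as the germ cell and testis list, with 40 of 64 tested.

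**Figure D2:**
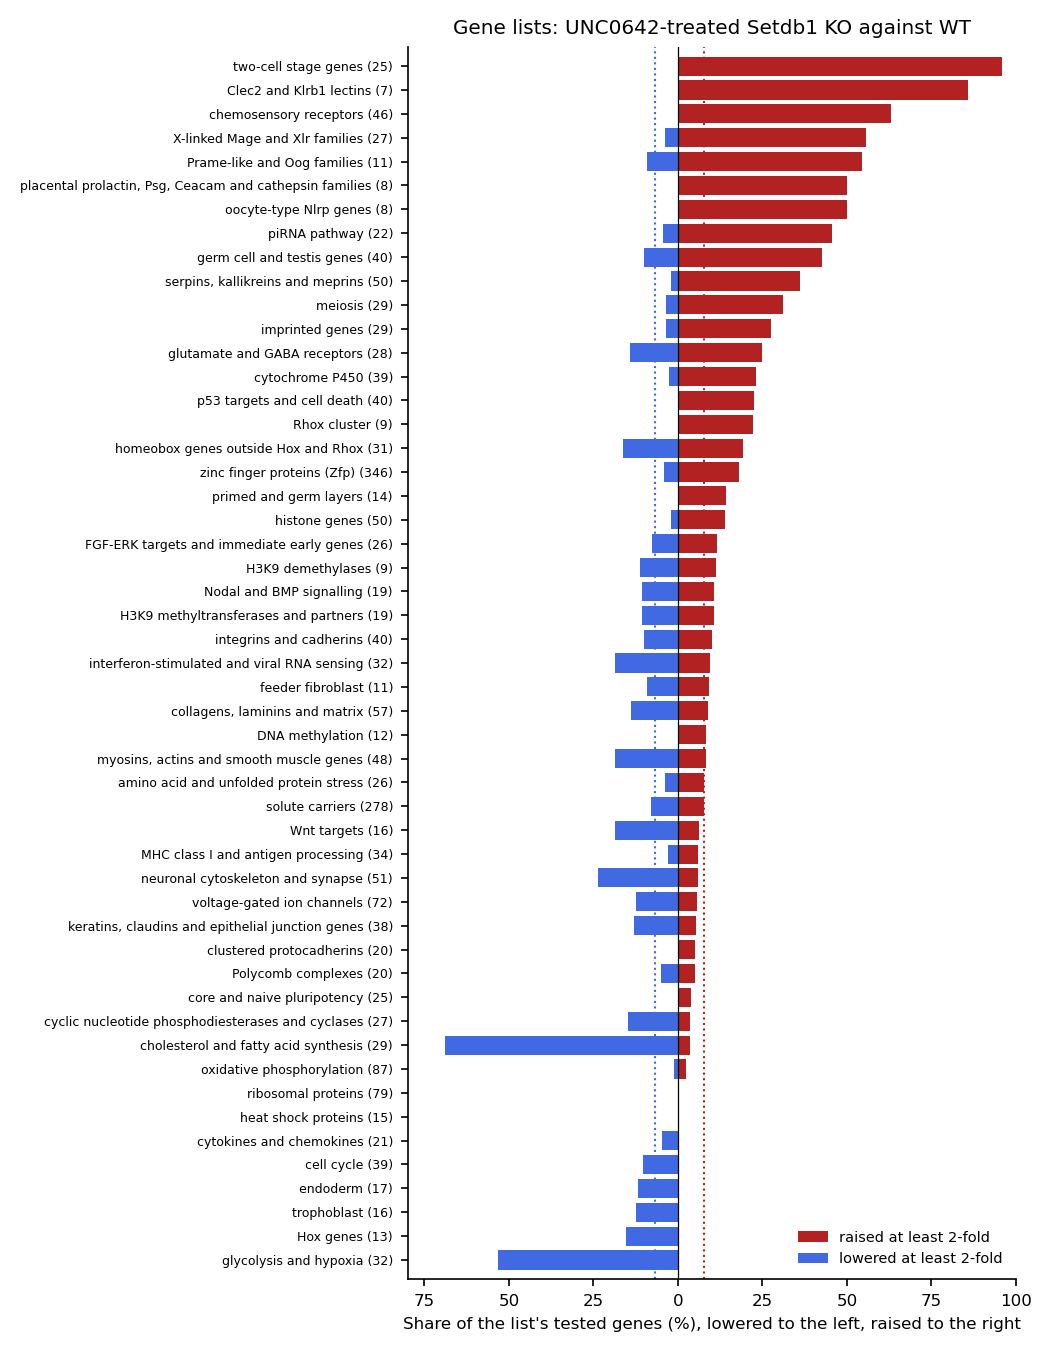
Bars give, for each of 51 gene lists, the percentage of its tested genes (number in parentheses) raised at least 2-fold (right) or lowered at least 2-fold (left) in UNC0642-treated Setdb1 KO against WT mESCs at an adjusted p under 0.05; dotted lines mark the 7.76% and 6.83% of all tested genes. Cholesterol and glycolysis lists reach farthest to the left and the two-cell stage list farthest to the right; shares of lists mostly silent in WT are set by the expression filter.

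The 12 genes with the smallest p among those raised over 10-fold included lectins, matrix proteases and genes of the gut, liver and testis. Of 7 tested Clec2 and Klrb1 lectins, ligand and receptor genes of a natural killer cell cluster on chromosome 6, 6 were raised over 10-fold and none was lowered, and 4 were called without replicate 2 of the treated KO. The files hold 13 genes of this list, and those too low to test are not in the count. Clec2g gave 0 and 0.0361 CPM in WT, a single read in all, and 128 and 59.9 CPM in the treated KO (adjusted p = 9.99e-05), a ratio of 3049 (95% counting interval 547 to 120469). Clec2i rose from 0.871 and 0.974 to 77.1 and 84.5 CPM (log2FC 6.42 ± 0.35, adjusted p = 9.99e-05). Clec2f rose from 0.261 and 0.108 to 42.4 and 33.3 CPM (log2FC 7.79 ± 0.43, adjusted p = 9.99e-05). The groups did not overlap in any of the 3, which was a condition for the 12 genes with the smallest p. Mmp1b, an interstitial collagenase (chr9:7367670-7388026), had no read in WT and 100.4 and 57.5 CPM in the treated KO, at least 427-fold higher against a floor of 3 counts per WT library (adjusted p = 9.99e-05). Mmp12, macrophage elastase and a neighbour on chromosome 9, went from 0.0871 and 1.01 to 158 and 319 CPM (log2FC 8.61 ± 0.51, adjusted p = 9.99e-05). Cd209c, a DC-SIGN-type lectin, went from 0.958 and 1.41 to 389.7 and 442 CPM (log2FC 8.52 ± 0.53, adjusted p = 1.14e-04). Clec2g, Clec2i, Clec2f, Mmp1b, Mmp12 and Cd209c were not called against Setdb1 KO mESCs, with log2 differences from -0.12 to 0.48. Of all 612 genes raised over 10-fold, 18 were called against Setdb1 KO mESCs. The 612 genes had a median log2 fold change over WT of 5.23 here, 3.44 in Setdb1 KO and 2.19 in UNC0642-treated mESCs. The class was called in the combined condition, which favours a higher median there.

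Chemosensory receptors, which are normally expressed one per sensory neuron, were mostly too low to test: of 1513 in the files 46 passed the expression filter, of which 29 were raised, 27 of them over 10-fold, and none was lowered. The count says nothing of the family as a whole. Olfr613 gave 19.16 and 15.6 CPM in WT and 967 and 376 CPM in the treated KO (log2FC 5.09 ± 0.40, adjusted p = 2.20e-04). Olfr856-ps1, a pseudogene, rose from 7.75 and 10.5 to 267 and 157 CPM (log2FC 4.48 ± 0.36, adjusted p = 2.29e-04). Both had reads in WT, unlike most tested receptors, whose median WT level lay near 0. Olfr901 had no read in WT and 4.57 and 11.1 CPM in the treated KO, at least 42.5-fold higher. Without replicate 2 of the treated KO 8 chemosensory receptors were called.

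Genes of secreted proteases, their inhibitors and liver-type metabolism were also among those raised. Of 147 serpins, kallikreins and meprins and 104 cytochrome P450 genes in the files, 50 and 39 passed the expression filter. Their raised shares are thus set in part by that filter. Of 50 serpins, kallikreins and meprins 18 were raised and 1, Prss57, was lowered (6 and 0 without replicate 2 of the treated KO). Prss57, the lowered member, is a serine protease outside the families that name the list. Mep1b, the beta subunit of the brush-border protease meprin, gave 4.62 and 5.09 CPM in WT and 126 and 122 CPM in the treated KO (log2FC 4.66 ± 0.27, adjusted p = 9.99e-05). Klk1b24, a glandular kallikrein, rose from 0 and 0.0361 to 9.24 and 12.5 CPM, a ratio of 458 (95% counting interval 81.7 to 18116). Of 39 cytochrome P450 genes 9 were raised and 1, Cyp2s1, was lowered (5 and 0 without the block, 2 and 0 without replicate 2 of the treated KO). Cyp2b23 rose from 6.79 and 3.32 to 137 and 84.8 CPM (log2FC 4.51 ± 0.31, adjusted p = 1.85e-04), whereas Cyp4a12b, a male liver fatty acid hydroxylase in mice, rose from 0 and 0.0722 to 33.7 and 50.8 CPM, a ratio of 908 (95% counting interval 251 to 7502). Efhc2, an X-linked ciliary gene, rose from 2.44 and 1.37 to 59.4 and 44.4 CPM (log2FC 4.81 ± 0.34, adjusted p = 1.85e-04). In Setdb1 KO mESCs Mep1b gave 229 and 180 CPM and Cyp2b23 203 and 153 CPM, above the combined condition. Klk1b24 gave 10.8 and 22.1 CPM there, Cyp4a12b 3.05 and 9.80 CPM and Efhc2 7.92 and 6.88 CPM. Of these genes Efhc2 alone was called against Setdb1 KO mESCs (adjusted p = 0.0205).

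Of 25 tested genes of the two-cell stage, the list of transcripts that mark the start of zygotic transcription and that appear in a rare fraction of mESCs, 24 were raised, 23 of them over 10-fold, and none was lowered. This count was little affected by the settings, at 22 without the block and 21 without replicate 2 of the treated KO. Usp17lb, a deubiquitinase, gave 0.261 and 0.469 CPM in WT and 135 and 79.6 CPM in the treated KO (log2FC 7.89 ± 0.47, adjusted p = 9.99e-05). Zscan4c, the most abundant of the Zscan4 genes that act in telomere recombination, rose from 5.14 and 14.5 to 725 and 288 CPM (log2FC 5.29 ± 0.75, adjusted p = 0.00299). Dux, the transcription factor that activates two-cell stage genes, changed less, from 0.261 and 1.91 to 2.91 and 6.51 CPM (log2FC 2.33 ± 0.52, adjusted p = 0.0200), and its adjusted p without the block was 0.35. Tmem92 was the member not called (0.174 and 1.77 CPM in WT, 3.53 and 3.27 CPM in the treated KO). These families consist of near-identical copies among which counting can split reads, so values of single Usp17l, Zscan4 and Tdpoz genes are uncertain. All 25 tested members had a positive log2 fold change, but copies that share reads are not separate observations. For this list the median log2 fold change over WT was 5.51 in the treated KO, 4.40 in UNC0642-treated and 3.42 in Setdb1 KO mESCs, which share their WT libraries. Against Setdb1 KO mESCs 2 of the 25 tested members were called.

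Meiosis and piRNA genes were nearly all tested (29 of 30 and 22 of 23), and their raised shares were above the 7.76% of all genes. Of 29 meiosis genes 9 rose and 1 fell. Of 22 genes of the piRNA pathway, which silences transposons in germ cells, 10 rose and 1 fell. Of 40 other germ cell and testis genes 17 rose and 4 fell. The files hold 64 of these last genes, so their raised share is set in part by the expression filter. The counts without replicate 2 of the treated KO were 5, 6 and 10 raised. The meiotic group held axial and central elements of the synaptonemal complex, the protein zipper between paired chromosomes. Sycp2 gave 0.348 and 0.325 CPM in WT and 9.13 and 11.7 CPM in the treated KO (log2FC 4.94 ± 0.48, adjusted p = 5.57e-04). Tex12 rose from 0.174 and 0.289 to 4.05 and 4.34 CPM (log2FC 4.14 ± 0.62, adjusted p = 0.00382). Sycp1 rose from 14.9 and 9.53 to 211 and 56.4 CPM (log2FC 3.13 ± 0.36, adjusted p = 0.00116; adjusted p = 0.068 without the block). Rec8, the meiotic cohesin subunit, moved the other way, from 26.4 and 19.3 to 3.01 and 3.38 CPM (log2FC -2.88 ± 0.42, adjusted p = 0.00354). Recombination and checkpoint members such as Dmc1 (20.03 and 6.57 CPM in WT, 6.12 and 4.74 CPM in the treated KO), Stra8, the retinoic acid-induced entry factor (282 and 129 CPM in WT, 28.2 and 107 CPM in the treated KO), and Mei4 did not pass the test.

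In the piRNA pathway Mael, a perinuclear granule protein, gave 5.92 and 6.42 CPM in WT and 38.2 and 37.98 CPM in the treated KO (log2FC 2.63 ± 0.26, adjusted p = 5.57e-04). Mov10l1, the helicase that starts piRNA production, rose from 7.84 and 8.08 to 34.8 and 39.7 CPM (log2FC 2.23 ± 0.24, adjusted p = 0.00100). Both were among the 12 moderately raised genes with the smallest p. Gtsf1 rose from 1.22 and 1.59 to 18.2 and 24.5 CPM (log2FC 3.91 ± 0.39, adjusted p = 6.71e-04). The PIWI proteins themselves were not called, with Piwil2 at 22.1 and 25.98 CPM in WT and 51.7 and 37.5 CPM in the treated KO (log2FC 0.86 ± 0.28, adjusted p = 0.0693). In the testis list Slc25a31, the germ cell ADP/ATP carrier, rose from 1.57 and 2.85 to 34.9 and 53.5 CPM (log2FC 4.32 ± 0.30, adjusted p = 1.85e-04). Tex101, a sperm surface protein, rose from 0.348 and 0.469 to 7.58 and 24.97 CPM (log2FC 5.24 ± 0.47, adjusted p = 3.89e-04), and the ribosomal protein copies Rpl10l and Rpl39l rose by 3.81 each on the log2 scale. Members that fell were Ybx2, Khdc3, Dmrt1 and Tcp11, by between 1.31 and 3.22.

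The promoters of 3 raised germline genes are shown, chosen because they hold the palindrome CACGTG, an E-box that several germline repressors read. The 300-base windows run from 250 bases before to 50 after the RefSeq start in GRCm38.p6, 5′ to 3′ on the gene's strand, with CACGTG in capitals, for Mael (chr1:166238695-166238994, minus strand), Tex12 (chr9:50561219-50561518, minus strand) and Slc25a31 (chr3:40708621-40708920, plus strand).
Mael: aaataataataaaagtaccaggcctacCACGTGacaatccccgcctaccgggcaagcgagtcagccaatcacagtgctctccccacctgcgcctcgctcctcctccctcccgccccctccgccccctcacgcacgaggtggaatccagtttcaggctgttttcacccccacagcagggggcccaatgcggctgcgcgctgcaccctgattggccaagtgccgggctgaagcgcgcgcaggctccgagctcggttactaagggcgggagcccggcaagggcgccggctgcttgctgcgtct
Tex12: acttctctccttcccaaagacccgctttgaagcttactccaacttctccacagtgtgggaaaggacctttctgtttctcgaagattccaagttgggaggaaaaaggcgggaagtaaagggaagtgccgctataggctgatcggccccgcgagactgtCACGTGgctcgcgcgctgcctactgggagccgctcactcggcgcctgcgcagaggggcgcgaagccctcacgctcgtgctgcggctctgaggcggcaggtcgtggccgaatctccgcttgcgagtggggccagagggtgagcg
Slc25a31: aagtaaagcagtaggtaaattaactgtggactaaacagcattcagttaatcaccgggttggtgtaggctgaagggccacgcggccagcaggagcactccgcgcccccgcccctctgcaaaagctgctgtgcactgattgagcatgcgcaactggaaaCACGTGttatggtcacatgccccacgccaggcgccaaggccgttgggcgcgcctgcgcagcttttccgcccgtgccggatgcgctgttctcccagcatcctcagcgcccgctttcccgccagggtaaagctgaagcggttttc
Over the 3 lists, 13 of 32 raised genes with a promoter in the RefSeq table (40.6%) held CACGTG, and so did 25 of all 79 tested members with one (31.6%). Over all 11971 tested genes with a promoter the share was 11.4%, and over all 32851 promoters of the table it was 7.15%. The letters TTCCCGC on either strand, the core that E2F factors bind, were in 11 of the 32 raised genes (34.4%), in 20 of the 79 members (25.3%) and in 9.43% of tested genes with a promoter. A match describes the letters and not the binding of a factor.

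**Figure D3:**
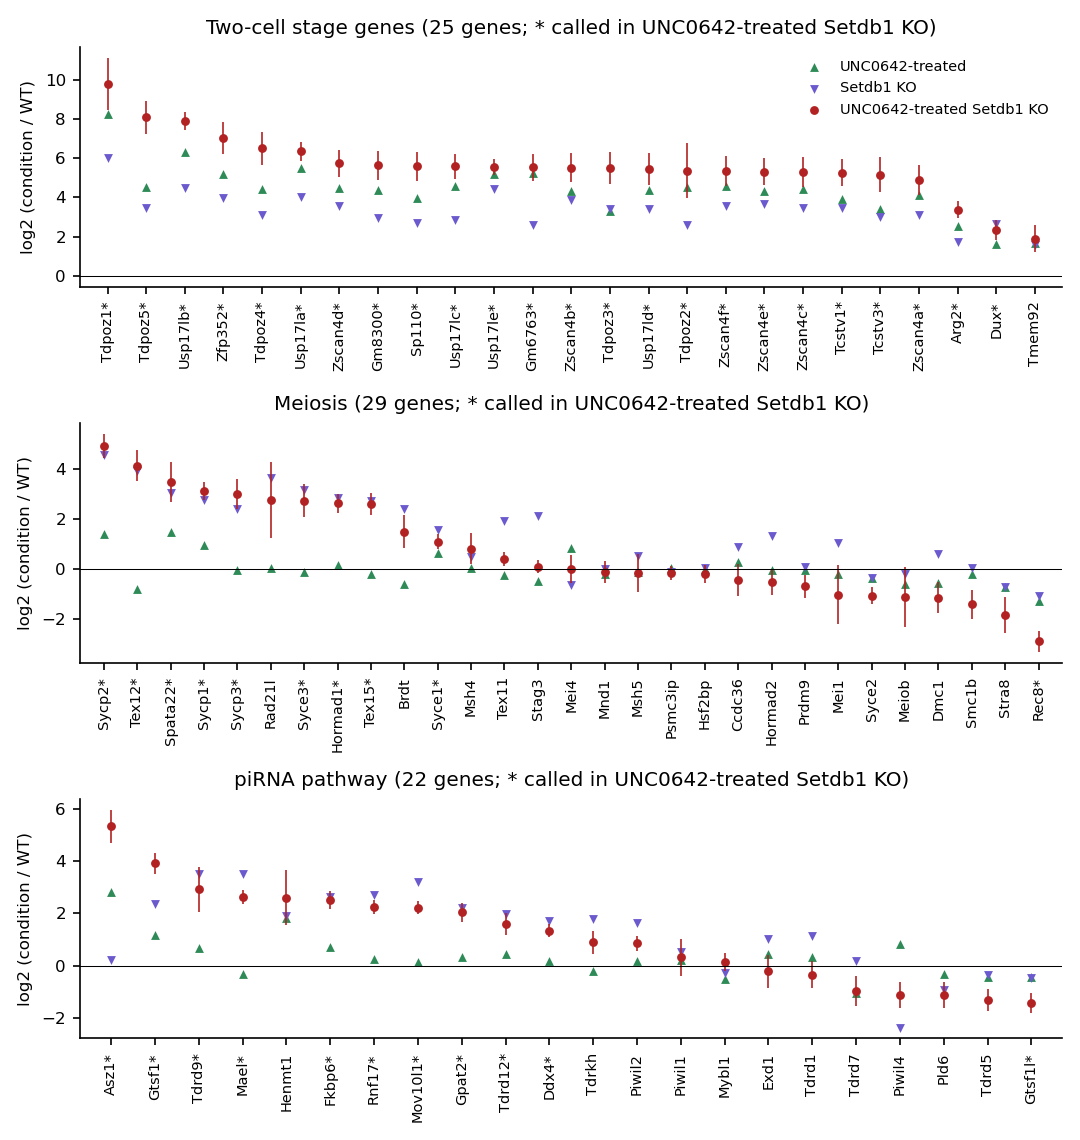
For every tested gene of the two-cell stage (25 genes), meiosis (29 genes) and piRNA (22 genes) lists, points give the log2 fold change over WT in UNC0642-treated Setdb1 KO (circles, bars show the SE), Setdb1 KO and UNC0642-treated mESCs (triangles); the 3 comparisons share the WT libraries. Raised meiosis and piRNA genes lie nearer to their Setdb1 KO value than to their UNC0642 value, Asz1 excepted. Most two-cell stage genes lie above both single treatments, but 2 of the 25 were called against Setdb1 KO.

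X-linked and oocyte-type families rose in part. In the first 3 lists below, 13 of 27, 3 of 8 and 5 of 11 tested members were raised over 10-fold. The files hold 46, 12 and 16 members of these lists, so the raised shares are set in part by the expression filter. Of the 27 tested members of the X-linked Mage and Xlr list 15 rose and 1 fell, the latter being Ssx2ip, a centrosomal gene of chromosome 3 that shares only its name with the Ssx family. The raised count was 10 without the block and 4 without replicate 2 of the treated KO. Xlr3c, a synaptonemal complex-like protein, gave 0.261 and 0.289 CPM in WT and 17.1 and 14.8 CPM in the treated KO (log2FC 5.75 ± 0.49, adjusted p = 3.24e-04). Of 8 Nlrp genes of oocytes 4 rose, among them Nlrp4c from 1.74 and 1.73 to 186 and 68.4 CPM (log2FC 5.95 ± 0.48, adjusted p = 2.40e-04), and of 11 Prame-like and Oog genes 6 rose and 1 fell, with Pramel3 at 0.0871 and 0.289 CPM in WT and 22.2 and 34.1 CPM in the treated KO (log2FC 7.13 ± 0.52, adjusted p = 1.85e-04). Of 8 tested placental prolactin, Psg, Ceacam and cathepsin genes 4 rose, with Ceacam2 at 0.610 and 2.42 CPM in WT and 62.4 and 33.1 CPM in the treated KO (log2FC 4.85 ± 0.58, adjusted p = 0.00136). Chromosome X carried 68 of the 612 genes raised over 10-fold (11.1%), against 3.87% of all tested genes, but 22 of the 576 moderately raised genes (3.82%). Genes raised over 10-fold lay beside one another: for 204 of 598 placed genes (34.1%) the nearest tested gene was raised over 10-fold too, whereas a gene of that group was the nearest neighbour of 3.43% of all placed genes. Copies of a family share reads and position, which this share includes.

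The moderately raised genes were more often expressed in WT. Myo5b, an apical vesicle motor, gave 4.62 and 3.32 CPM in WT and 38.1 and 36.4 CPM in the treated KO (log2FC 3.26 ± 0.30, adjusted p = 4.42e-04). H2-Q4, a non-classical MHC class I gene, rose from 19.8 and 15.3 to 132 and 82.8 CPM (log2FC 2.59 ± 0.24, adjusted p = 4.51e-04). Colec12, a scavenger receptor, rose from 17.9 and 13.2 to 108 and 129 CPM (log2FC 2.94 ± 0.28, adjusted p = 5.51e-04). The treated KO lay above WT in both replicates for all 3, which was a condition for naming them. Cmah, the enzyme that makes N-glycolylneuraminic acid, was the most abundant of the 12 with the smallest p, at 233 and 129 CPM in WT and 1716 and 669 CPM in the treated KO (log2FC 2.63 ± 0.30, adjusted p = 0.00115), and Lipo1, a lipase, rose from 9.93 and 6.89 to 82.3 and 67.2 CPM (log2FC 3.18 ± 0.30, adjusted p = 4.73e-04). Ddhd1, a phospholipase, rose from 35.3 and 29.1 to 142 and 174 CPM (log2FC 2.31 ± 0.25, adjusted p = 0.00100). Ott, an ovary and testis gene of the X chromosome, rose from 3.74 and 2.92 to 27.1 and 34.8 CPM (log2FC 3.22 ± 0.33, adjusted p = 6.89e-04).

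Of 346 tested genes named Zfp, many of them zinc finger proteins of the KRAB type, which guide SETDB1 through KAP1, 62 rose, only 4 of them over 10-fold, and 14 fell. Without the block 8 were raised, and without replicate 2 of the treated KO 15. Zfp229 gave 47.9 and 26.5 CPM in WT and 301 and 126 CPM in the treated KO (log2FC 2.45 ± 0.24, adjusted p = 5.51e-04; adjusted p = 0.069 without the block). Zfp560 gave 6.44 and 5.23 CPM in WT and 43.2 and 30.2 CPM in the treated KO (log2FC 2.63 ± 0.29, adjusted p = 9.75e-04). Zfp277 rose from 69.6 and 43.5 to 267 and 196 CPM (log2FC 2.06 ± 0.23, adjusted p = 9.91e-04). An unusual member was Zfp488, a repressor studied in oligodendrocytes, which rose over 10-fold from a high level of 56.6 and 53.5 to 2896 and 1277 CPM (log2FC 5.08 ± 0.42, adjusted p = 2.83e-04). Of those lowered, Zfp143, an activator of ubiquitous promoters, fell from 111 and 63.2 to 44.3 and 24.05 CPM (log2FC -1.36 ± 0.25, adjusted p = 0.00951).

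Of 40 p53 targets and cell death genes 9 rose, all 2- to 10-fold, and none fell. Plk2, a stress-responsive kinase, gave 29.5 and 18.7 CPM in WT and 119 and 93.2 CPM in the treated KO (log2FC 2.17 ± 0.30, adjusted p = 0.00254). Btg2, an antiproliferative factor, rose from 14.3 and 15.8 to 40.7 and 64.1 CPM (log2FC 1.78 ± 0.28, adjusted p = 0.00491). Casp8, the initiator caspase of death receptors, rose from 7.58 and 7.04 to 35.3 and 28.4 CPM (log2FC 2.11 ± 0.37, adjusted p = 0.00800). Trp53inp1, Sesn2, Ccng1, Phlda3, Aen and Eda2r were the other raised members. The count was 2 without the block and 1 without replicate 2 of the treated KO, and between 8 and 12 without each other library. The fold changes of the single treatments had medians of 0.21 in Setdb1 KO and -0.28 in UNC0642-treated mESCs, against 0.35 in the combined condition.

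Turning to the lowered genes, the 12 with the smallest p among those lowered over 10-fold included signalling, motor and neural genes of low to intermediate level in WT. Pde4a, a cyclic AMP phosphodiesterase, gave 22.2 and 26.99 CPM in WT and 2.39 and 2.32 CPM in the treated KO (log2FC -3.39 ± 0.33, adjusted p = 5.55e-04). Smad6, the inhibitory SMAD of BMP signalling, fell from 5.40 and 6.28 to 0.208 and 0.184 CPM (log2FC -4.87 ± 0.61, adjusted p = 0.00169). Olig1, a glial transcription factor, fell from 7.84 and 21.3 to 0.415 and 1.58 CPM (log2FC -3.90 ± 0.40, adjusted p = 7.37e-04; adjusted p = 0.062 without the block). With 2 libraries per group, the groups did not overlap in 6444 of all 15313 tested genes. Nor did they in 4170 of the 12906 genes with an adjusted p of 0.05 or more. The same held for all 93 genes of this class, which follows largely from how they were called. The motor proteins Myh14, a non-muscle myosin, at 21.5 and 22.8 CPM in WT and 1.76 and 1.14 CPM in the treated KO (log2FC -3.98 ± 0.44, adjusted p = 0.00100), and Kif26a, an atypical kinesin, at 8.19 and 12.9 CPM in WT and 0.519 and 1.21 CPM in the treated KO (log2FC -3.67 ± 0.51, adjusted p = 0.00280), were also in it. Grin1, the obligatory NMDA receptor subunit, kept 3 reads in all in the treated KO and fell from 4.18 and 7.40 to 0.104 and 0.0735 CPM, 79.2-fold (95% counting interval 26.8 to 387) lower. Its antisense transcript Grin1os fell as well, and whether strand was used in counting is not given in the sources used here, so the overlapping pair cannot be separated.

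The moderately lowered genes with the smallest p included extracellular and membrane genes. Sema3e, a secreted guidance cue, gave 33.2 and 29.2 CPM in WT and 2.91 and 3.86 CPM in the treated KO (log2FC -3.19 ± 0.32, adjusted p = 6.71e-04). Nid1, the basement membrane linker nidogen, fell from 142 and 147 to 31.5 and 23.8 CPM (log2FC -2.39 ± 0.26, adjusted p = 9.49e-04). Ly75, an endocytic receptor, fell from 48.3 and 42.3 to 4.78 and 6.84 CPM (log2FC -3.00 ± 0.34, adjusted p = 0.00108). In all 3 the WT replicates lay close together and far above both treated KO values. That the groups did not overlap was a condition for naming these genes. Gstm1, a glutathione transferase, fell from 23.6 and 22.7 to 2.70 and 3.20 CPM (log2FC -2.98 ± 0.32, adjusted p = 9.49e-04), Prkar2a, a regulatory subunit of protein kinase A, from 100.8 and 97.8 to 25.7 and 18.1 CPM (log2FC -2.21 ± 0.25, adjusted p = 0.00110), and Slc7a6, an amino acid exchanger, from 60.5 and 72.3 to 16.7 and 18.6 CPM (log2FC -1.91 ± 0.23, adjusted p = 0.00140). Unc13b, Anxa6 and Igsf3, which act in vesicle priming, membrane binding and adhesion, fell by 2.74, 1.96 and 2.09 on the log2 scale.

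The list with the highest lowered share was cholesterol and fatty acid synthesis, the SREBP-controlled genes of sterol and lipid supply. Of 29 tested members 20 fell, 1 rose and 8 were not called, with a median log2 fold change of -1.32. Mvd fell from 38.8 and 97.9 to 11.2 and 19.4 CPM (log2FC -2.08 ± 0.26, adjusted p = 0.00174). Fdps, which makes farnesyl diphosphate, gave 261 and 221 CPM in WT and 86.6 and 50.5 CPM in the treated KO (log2FC -1.85 ± 0.26, adjusted p = 0.00275). Lss, the cyclase that closes lanosterol, fell from 88.5 and 105 to 26.99 and 21.1 CPM (log2FC -2.02 ± 0.25, adjusted p = 0.00170). Dhcr7, which completes cholesterol, fell from 115 and 127 to 30.9 and 21.2 CPM (log2FC -2.22 ± 0.30, adjusted p = 0.00246).

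Genes of sterol transport, regulation and desaturation fell too. Stard4, a sterol carrier, fell from 109 and 58.7 to 32.5 and 11.8 CPM (log2FC -2.02 ± 0.27, adjusted p = 0.00223). Srebf1, itself an SREBP gene, fell from 23.8 and 89.1 to 10.3 and 16.2 CPM (log2FC -1.84 ± 0.34, adjusted p = 0.00928). Scd1, the stearoyl-CoA desaturase, gave 497 and 196 CPM in WT and 88.8 and 14.2 CPM in the treated KO (log2FC -3.07 ± 0.37, adjusted p = 0.00137). Within each replicate the treated KO lay below WT for all 3, which follows largely from calling them in these same libraries. Idi1, isopentenyl diphosphate isomerase, was the exception and rose from 377 and 220.2 to 1562 and 661 CPM (log2FC 1.80 ± 0.33, adjusted p = 0.00893). Hmgcs1, Cyp51 and Elovl6 stayed within 0.2 of 0 on the log2 scale and were not called.

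The decrease of sterol genes was called in 4 members without the block, Lss, Dhcr7 and Fdps among them, in 9 from the 4 libraries alone and in 16 after correction for GC content. It was called in 7 without replicate 2 of the treated KO and in between 15 and 23 without each other library. In the single treatments the list's median log2 fold change was -1.11 in Setdb1 KO and -0.82 in UNC0642-treated mESCs. Of 19 members with a promoter in the RefSeq table a single one held TCACNCCAC, the sterol regulatory element as searched on both strands, and none of the 13 lowered members with one did, against 1.44% of tested genes. That says only that these letters are not in the window.

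Glycolysis and hypoxia genes were the other lowered metabolic group: of 32 tested members 17 fell at least 2-fold, 1 fell by less, none rose, and all 32 had a negative log2 fold change, with a median of -1.43. Ldha, lactate dehydrogenase A (chr7:46842274-46855627), gave 1182 and 1027 CPM in WT and 162 and 235 CPM in the treated KO (log2FC -2.51 ± 0.39, adjusted p = 0.00438). Slc16a3, the lactate exporter MCT4, fell from 83.9 and 221 to 6.85 and 25.2 CPM (log2FC -3.35 ± 0.46, adjusted p = 0.00261). Slc2a1, the glucose transporter GLUT1, fell from 577 and 1224 to 183 and 368 CPM (log2FC -1.70 ± 0.41, adjusted p = 0.0261). Entry, flux and export of glucose carbon were thus each represented. Among glycolytic enzymes Hk1 fell from 101.4 and 77.8 to 47.4 and 25.04 CPM (log2FC -1.36 ± 0.25, adjusted p = 0.00943). Pkm fell from 2801 and 2518 to 1002 and 884 CPM (log2FC -1.49 ± 0.32, adjusted p = 0.0162). Eno1 gave 744 and 981 CPM in WT and 299 and 313 CPM in the treated KO (log2FC -1.47 ± 0.31, adjusted p = 0.0160). Gapdh, the usual reference gene, at 2269 and 2932 CPM in WT and 1098 and 2182 CPM in the treated KO (log2FC -0.75 ± 0.25, adjusted p = 0.0746), and Pgk1, at 2025 and 746 CPM in WT and 226 and 409 CPM in the treated KO (log2FC -2.09 ± 0.62, adjusted p = 0.0510), were not called.

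Members known for their response to low oxygen fell too. Egln3, the oxygen-sensing prolyl hydroxylase PHD3, gave 191 and 139 CPM in WT and 6.95 and 13.7 CPM in the treated KO (log2FC -4.03 ± 0.86, adjusted p = 0.0171). Bnip3, a mitophagy receptor, fell from 523 and 139 to 39.2 and 55.6 CPM (log2FC -2.55 ± 0.74, adjusted p = 0.0476). P4ha1, a collagen prolyl hydroxylase, gave 198 and 83.1 CPM in WT and 21.8 and 25.8 CPM in the treated KO (log2FC -2.52 ± 0.59, adjusted p = 0.0242). Ndrg1, a stress-induced gene, fell from 72.2 and 33.6 to 9.76 and 10.6 CPM (log2FC -2.24 ± 0.44, adjusted p = 0.0119), and outside the list Ndufa4l2, a further gene known to respond to hypoxia, fell from 13.8 and 10.7 to 0.104 and 1.47 CPM (log2FC -4.12 ± 0.91, adjusted p = 0.0195). In the single treatments the list's medians were -0.51 in Setdb1 KO and -0.53 in UNC0642-treated mESCs. The lowered count was 2 without the block (Ldha and Egln3), 11 from the 4 libraries alone, 10 after GC correction, 7 and 4 without replicates 1 and 2 of the treated KO, and 11 and 23 without WT replicates 1 and 2.

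The promoters of 3 lowered members are shown, chosen because they hold ACGTG, the core of the element bound by hypoxia-inducible factors. They follow the same window and build, with ACGTG or its reverse complement in capitals, for Ldha (chr7:46845554-46845853, plus strand), Slc16a3 (chr11:120948817-120949116, plus strand) and Egln3 (chr12:54203825-54204124, minus strand). Ldha has 2 promoters in the table, of which the one with a match is given, and its runs of CACGTG hold the core on both strands.
Ldha: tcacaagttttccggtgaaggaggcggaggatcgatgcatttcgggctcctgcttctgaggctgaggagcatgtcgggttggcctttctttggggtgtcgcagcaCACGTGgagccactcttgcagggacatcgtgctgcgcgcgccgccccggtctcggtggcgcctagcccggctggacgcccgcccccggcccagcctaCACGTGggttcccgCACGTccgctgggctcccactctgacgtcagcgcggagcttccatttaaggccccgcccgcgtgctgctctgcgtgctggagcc
Slc16a3: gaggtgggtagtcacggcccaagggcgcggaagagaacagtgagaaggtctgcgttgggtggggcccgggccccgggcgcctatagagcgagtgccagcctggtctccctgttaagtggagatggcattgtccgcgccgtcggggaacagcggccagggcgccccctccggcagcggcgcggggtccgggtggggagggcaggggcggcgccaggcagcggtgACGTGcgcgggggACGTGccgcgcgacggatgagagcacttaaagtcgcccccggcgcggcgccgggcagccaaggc
Egln3: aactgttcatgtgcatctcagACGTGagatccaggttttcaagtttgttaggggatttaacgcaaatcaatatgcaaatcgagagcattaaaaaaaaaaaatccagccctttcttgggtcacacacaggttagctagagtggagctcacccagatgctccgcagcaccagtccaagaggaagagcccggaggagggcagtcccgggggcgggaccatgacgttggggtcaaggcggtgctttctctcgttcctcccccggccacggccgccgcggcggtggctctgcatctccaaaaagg
The core was present in 12 of 15 lowered members with a promoter (80.0%) and in 22 of 30 tested members (73.3%), so that the share was also high among members not called. It was present in 28.3% of all tested genes with a promoter and in 19.6% of all promoters of the table.

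**Figure D4:**
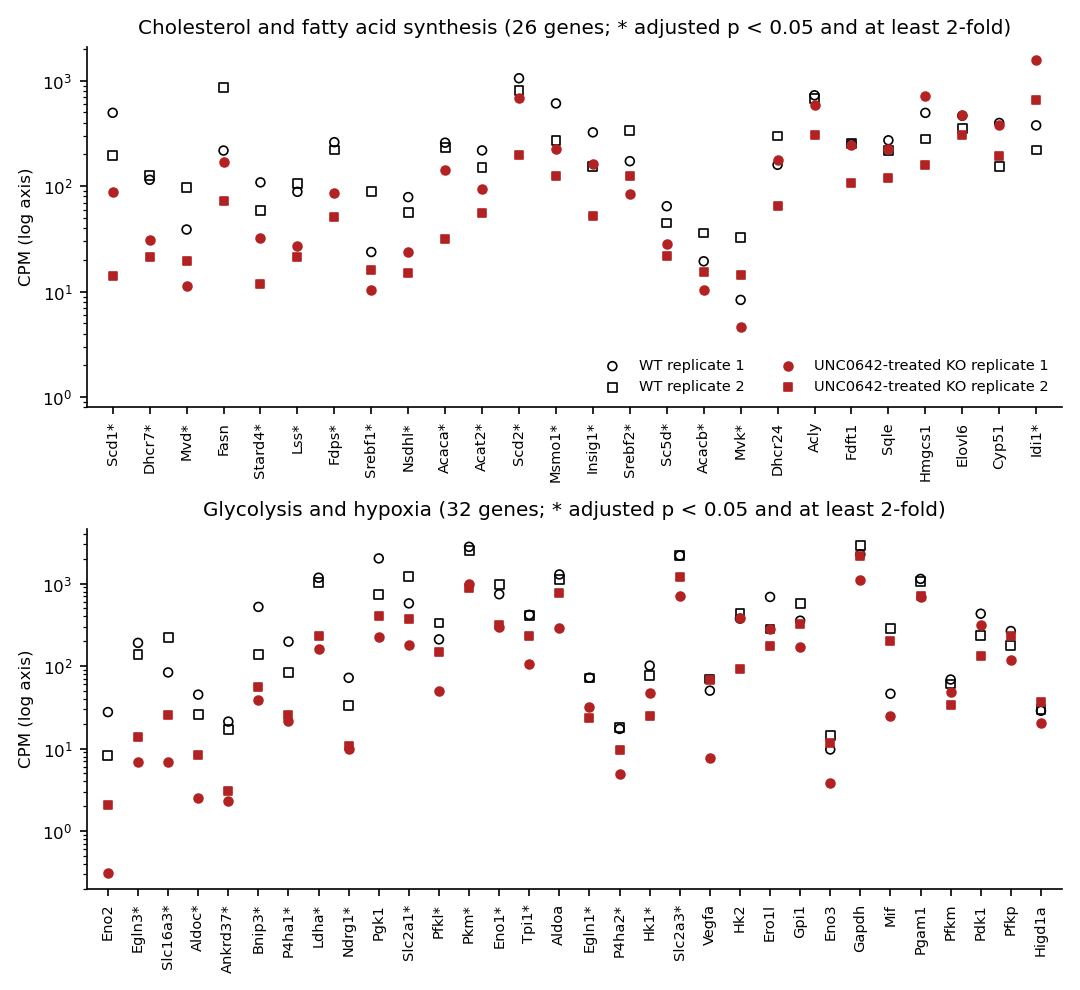
For genes of the cholesterol and fatty acid list (26 genes of the list, top) and the glycolysis and hypoxia list (32 genes, bottom), ordered by log2 fold change, points give CPM on a log axis in the 2 WT libraries (open) and the 2 UNC0642-treated Setdb1 KO libraries (filled), with circles for replicate 1 and squares for replicate 2. Filled points lie below open points of the same shape in every lowered gene shown, and above them in Idi1, which follows largely from calling these genes in the same libraries.

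Neural and excitability genes were called in both directions. Of 51 genes of the neuronal cytoskeleton and synapse 12 fell and 3 rose, with Nlgn2, a postsynaptic adhesion protein, at 15.1 and 28.5 CPM in WT and 5.92 and 4.71 CPM in the treated KO (log2FC -1.96 ± 0.38, adjusted p = 0.0116) and Syt7, a calcium sensor of exocytosis, at 12.7 and 16.3 CPM in WT and 4.26 and 3.49 CPM in the treated KO (log2FC -1.90 ± 0.36, adjusted p = 0.0111). Of 72 genes matched as voltage-gated ion channels 9 fell and 4 rose, one of the latter being Kcnq1ot1, an antisense RNA and not a channel. Kcnk1, a background potassium channel, fell from 34.4 and 19.96 to 4.57 and 3.35 CPM (log2FC -2.78 ± 0.44, adjusted p = 0.00512). Glutamate and GABA receptors went both ways, with 7 of 28 raised and 4 lowered. Among the raised, Gabrr1 went from 0.174 and 0.325 to 43.3 and 17.2 CPM (log2FC 6.86 ± 0.85, adjusted p = 0.00160). After GC correction the lowered and raised counts were 7 and 4 for synapse genes, 8 and 5 for channels and 2 and 4 for receptors. Without the block none of the synapse genes and 1 channel gene, Kcnk1, was called as lowered, and without replicate 2 of the treated KO none of either list was, while 1 synapse gene and 3 channel genes were raised in that setting (edgeR in both cases). The receptor counts were 3 raised and 2 lowered without the block and 1 and 0 without replicate 2 of the treated KO.

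Structural and signalling genes were also called in both directions. Of 48 myosins, actins and smooth muscle genes 9 fell and 4 rose, with Myh10, the non-muscle myosin IIB, at 218 and 122 CPM in WT and 77.7 and 33.5 CPM in the treated KO (log2FC -1.66 ± 0.26, adjusted p = 0.00438). Of 57 collagens, laminins and matrix genes 8 fell and 5 rose, the laminin chain Lamb1 going from 77.2 and 85.3 to 38.6 and 20.1 CPM (log2FC -1.51 ± 0.32, adjusted p = 0.0159), and of 38 keratins, claudins and junction genes 5 fell and 2 rose, with Cldn6 at 17.1 and 24.97 CPM in WT and 4.46 and 6.51 CPM in the treated KO (log2FC -1.94 ± 0.31, adjusted p = 0.00495) and Epcam raised by 1.05 on the log2 scale. Without the block the lowered counts were 2, 1 and 0 for the myosin, matrix and junction lists, and without replicate 2 of the treated KO they were 3, 1 and 0. After GC correction 5 members of the myosin list fell and 4 rose, 2 of the matrix list fell and 7 rose, and 6 of the junction list fell and 3 rose. Of 27 cyclic nucleotide phosphodiesterases and cyclases 4 fell (Pde4a, Pde9a, Pde4c and Adcy6) and 1 rose (Adcy10). Among signalling targets Ier3, an immediate early gene, fell from 18.4 and 30.2 to 1.76 and 1.58 CPM (log2FC -3.87 ± 0.71, adjusted p = 0.00929), and Ccnd1, cyclin D1, from 42.8 and 123 to 12.98 and 16.4 CPM (log2FC -2.50 ± 0.65, adjusted p = 0.0324), while Spry2 rose from 142 and 119 to 481 and 301 CPM (log2FC 1.52 ± 0.35, adjusted p = 0.0226). All 4 lowered genes of the 39 in the cell cycle list were lost without the block.

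GC content moved with direction. The median transcript GC content was 45.2% and 45.4% for genes raised over 10-fold and 2- to 10-fold, 53.9% and 56.5% for genes lowered 2- to 10-fold and over 10-fold, and 49.8% over all tested genes. With GC content removed from each library, by subtracting the library's median shift within each of 20 classes of it, 589 of the 612 and 445 of the 576 raised genes were still called in the same direction, as were 570 of the 953 and 77 of the 93 lowered genes. In that fit 58 genes were lowered over 10-fold. The part of GC content in the decreases was otherwise not tested.

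**Figure D5:**
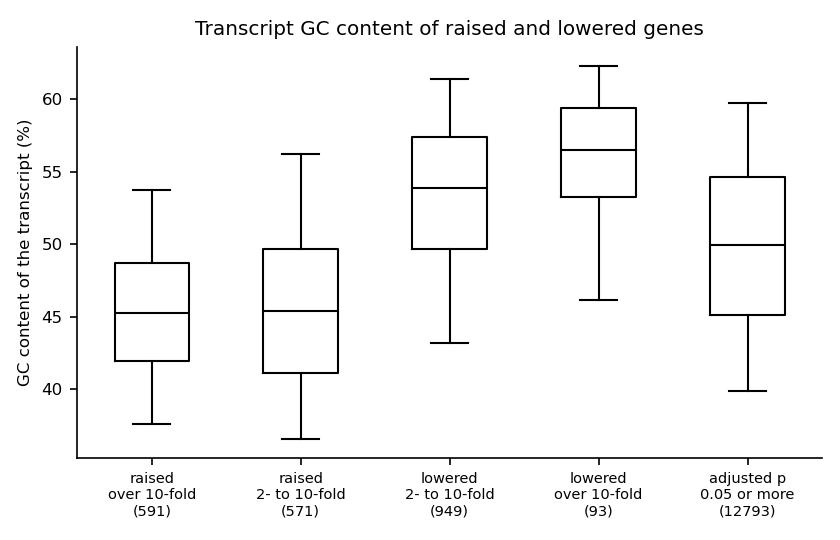
Boxes give the transcript GC content (percent, y axis) of the genes in each called group and of genes with an adjusted p of 0.05 or more, with the number of genes below each box; the line is the median, the box the quartiles and the whiskers the 5th and 95th percentiles. Medians are 45.2% and 45.4% in the raised groups and 53.9% and 56.5% in the lowered groups.

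Some lists had few or no called members. None of 79 ribosomal protein genes (median log2 fold change 0.16) and none of 15 heat shock genes (-0.05) was called by edgeR or by DESeq2 with the block, and at an unadjusted p under 0.05 the heat shock genes numbered 1 in edgeR and 3 in DESeq2 and the ribosomal protein genes 0 in both, with Rpl4 at 2148 and 1739 CPM in WT and 1466 and 1698 CPM in the treated KO (log2FC -0.30 ± 0.24, adjusted p = 0.415) and Hsp90ab1 at 8712 and 5971 CPM in WT and 6880.4 and 3747 CPM in the treated KO (log2FC -0.50 ± 0.23, adjusted p = 0.158). Of 87 oxidative phosphorylation genes 2 rose, Cox6c and the testis isoform Cox7b2, and Ndufa4l2 fell. Of 25 pluripotency genes Fbxo15 rose, from 109 and 125 to 318 and 681 CPM (log2FC 2.05 ± 0.31, adjusted p = 0.00395), and none fell, Zfp42 being nearest to a call at 342 and 634 CPM in WT and 685 and 1499 CPM in the treated KO (log2FC 1.14 ± 0.34, adjusted p = 0.0531). Among the 7 primed and germ layer markers Otx2 rose from 60.4 and 32.9 to 118 and 155 CPM (log2FC 1.68 ± 0.39, adjusted p = 0.0225) and Fgf5 from 0.0871 and 0.469 to 13.7 and 2.24 CPM (log2FC 4.09 ± 0.94, adjusted p = 0.0221), while the other 5 were not called, with log2 fold changes of -2.66 for Mixl1 (adjusted p = 0.0663), -0.64 for Pax6, -0.01 for Pou3f1, 0.34 for Sox1 and 1.76 for T. The trophoblast factor Eomes fell from 17.7 and 18.2 to 9.86 and 3.05 CPM (log2FC -1.77 ± 0.47, adjusted p = 0.0347).

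The combined condition was next set against each single treatment over the same genes. Against UNC0642-treated mESCs 444 genes (2.90%) were over 2-fold higher and 134 (0.875%) lower, and against Setdb1 KO mESCs 18 genes (0.118%) were higher and 1 (0.00653%) lower. All 18 were raised over 10-fold against WT, which follows in part from the treated KO libraries that both comparisons share. Chromosome X held 8 of the 18 (44.4%), against 3.87% of all tested genes, and some of the 8 may share reads. Nxf3, an X-linked testis RNA export factor, gave 0.466 and 0.385 CPM in Setdb1 KO and 12.04 and 11.3 CPM in the combined condition (log2 difference 4.78, adjusted p = 0.00791), Pramel3 0.381 and 1.05 against 22.2 and 34.1 CPM (5.38, 0.00704), and Usp17lb 13.1 and 7.48 against 135 and 79.6 CPM (3.39, 0.0191). In UNC0642-treated mESCs Nxf3 gave 12.8 and 10.2 CPM, Pramel3 0.799 and 1.01 CPM and Usp17lb 54.2 and 22.0 CPM. Nxf3 in the combined condition was not called against UNC0642-treated mESCs (log2 difference 0.04, adjusted p = 0.971). AV320801, an uncharacterised X-linked gene, showed the smallest p, at 0.931 and 1.87 against 33.2 and 52.6 CPM (4.97, 0.00566), and the X-linked predicted genes Gm5128, Gm7903 and Gm15023 were higher in parallel and may share reads with it.

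Asz1, a germ granule protein of the piRNA pathway, was higher than in Setdb1 KO as well (0.423 and 0.275 against 9.86 and 15.9 CPM), as were Pdha2, Mapk10, Pcdh8 and Reg1, chosen here after their values were seen. In UNC0642-treated mESCs Asz1 gave 2.40 and 2.05 CPM and Pdha2 3.67 and 6.66 CPM, the latter beside 5.19 and 27.5 CPM in the combined condition. The gene that was lower was Stag3, a meiotic cohesin subunit also chosen so, at 50.9 and 102 CPM in Setdb1 KO, 11.5 and 26.3 CPM in the combined condition and 13.1 and 20.2 CPM in WT. No gene differed from Setdb1 KO without the block (edgeR, 720 genes at an unadjusted p under 0.05), whereas DESeq2 with the block called 378. None of the lowered genes of the cholesterol or glycolysis lists was called against Setdb1 KO, with log2 differences of -1.56 for Ldha (adjusted p = 0.181), -2.34 for Slc16a3 (0.121) and -1.25 for Scd1 (0.223). Against UNC0642-treated mESCs Ldha was lower by 1.82 on the log2 scale (adjusted p = 0.0323) and Scd1 by 1.89 (0.0198).

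Transposable element subfamilies moved in one direction. Of 932 tested, 351 (37.7%) were raised over 2-fold and none was lowered, of which 274 were of 571 LTR subfamilies, 55 of 144 LINE, 16 of 159 DNA and none of 35 SINE subfamilies. At an unadjusted p under 0.05 edgeR had 2 lowered subfamilies, and DESeq2 with the block called 1. Subfamilies took 3.70% and 2.77% of all counts in WT and 17.1% and 11.4% in the treated KO. As these counts enter the same library totals, the scaling of genes depends on them, and with genes alone 833 genes were lowered at least 2-fold in place of 1046.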

How the data were processed

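RNA was measured by RNA-seq in 8 libraries, 2 for each of 4 conditions. As given in the study's methods and the submitters' processing notes, the authors trimmed reads with Trim Galore 0.3.7, aligned them with TopHat2 to GRCm38 and counted genes and transposable element subfamilies with TEtranscripts. What the authors deposited are unnormalised counts, one value for each gene or subfamily and library, and counts of multi-mapped reads are shared among copies by that tool. Whether strand was used in counting is not given in the sources used here.

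Groups came from the sample titles. The 8 libraries were fitted together in edgeR 4.0.16 (R 4.3.3) with TMM scaling, filterByExpr (minimum count 10, minimum total 15), a prior count of 0.125 and the quasi-likelihood test, with condition and replicate number as terms, which left 3 residual degrees of freedom. P-values were adjusted by Benjamini-Hochberg over 16245 features, of which 15313 were genes and 932 subfamilies. A call required an adjusted p below 0.05 together with a 2-fold difference, and calls were split at 10-fold. The SE is the log2 fold change divided by the square root of F. CPM are counts per 1000000 of the TMM-scaled library. A count of 0 was read against a floor of 3 counts per library, 0.108 to 0.311 CPM in the compared libraries, and floors and counting intervals cover counting error only.

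The replicate number was a block because the plan of the comparison asked for it as a pairing factor. Same-numbered libraries deviated together: the correlation of deviations from the condition means was 0.285 to 0.663 (median 0.587) over 6 pairs of conditions. Between WT and the treated KO, the pair compared here, it was 0.351. The labels do not say what same-numbered libraries share, and with 2 replicates a condition's deviations are mirror images. Only these correlations bear on the pairing, and the fit without the block is given beside the counts. The study's methods name DESeq2, which was used here (1.42.0) as an alternative.

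Genes named are Setdb1, Ehmt1 and Ehmt2, the 12 with the smallest p in each of the 4 classes (both treated KO libraries beyond both WT libraries, no predicted or clone-named symbols, at least 1 CPM in the higher group) and, for each of 51 lists, up to 4 called members per direction with the smallest p or, where none was called, the 2 most abundant. Further members of these lists and genes differing from Setdb1 KO were named after their values were seen. The lists and the comparison were chosen with earlier results of these data known. Promoter windows are from RefSeq (GRCm38.p6), and 11971 of the 15313 tested genes matched one. The code was tested on simulated data. Alternatives were other scalings, filters, prior counts, GC correction, the 4 compared libraries alone, DESeq2, and leaving out each library. A few members of the lists are counted but not reported here by name.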

Additional observations from a re-analysis of the deposited data

How the results depend on the processing

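The pairing decides how many genes are called. Without the replicate block 399 genes were raised over 10-fold, 73 were raised 2- to 10-fold, 51 were lowered 2- to 10-fold and 31 were lowered over 10-fold. In that fit 113 subfamilies changed over 2-fold in either direction, no gene differed from Setdb1 KO (edgeR, 720 at an unadjusted p under 0.05) and 139 differed from UNC0642-treated mESCs. With the block they were 612, 576, 953, 93, 351, 19 and 578. DESeq2 with the block gave 378 and 1077 for the comparisons with Setdb1 KO and UNC0642-treated mESCs. On the 4 libraries alone DESeq2 gave 234 moderately raised genes, 254 moderately lowered genes and 186 subfamilies changed over 2-fold, and edgeR gave 241, 300 and 199. Without an expression filter 106 genes differed from Setdb1 KO, with a prior count of 2 the genes lowered over 10-fold were 53, and after GC correction 58.

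Leaving out 1 library at a time gave 254 to 561 genes raised over 10-fold, 109 to 552 raised 2- to 10-fold, 47 to 1025 lowered 2- to 10-fold, 18 to 185 lowered over 10-fold, 160 to 299 raised subfamilies, 0 to 243 genes against Setdb1 KO and 150 to 1045 against UNC0642-treated mESCs. The lowest counts of the 4 classes came without replicate 2 of the treated KO, and the highest count of genes lowered over 10-fold came without WT replicate 2. No gene differed from Setdb1 KO without replicate 1 or 2 of the treated KO (edgeR, 1911 and 985 at an unadjusted p under 0.05). A lone library was assumed to vary like the other conditions. None of the 238 called named genes reversed its direction in any setting that gave it a value. As they were chosen for a small p, many also for groups that did not overlap, a reversal was unlikely from the start. Of the named genes that were not called, Rpl3, a ribosomal protein gene, ranged from -0.29 to 0.81 in log2 fold change when 1 library was left out (0.23 with all). Of 238 called named genes 105 were still called without the block, 238 with DESeq2 and the block, 208 after GC correction and 108 without replicate 2 of the treated KO. Fits on 4 libraries give no value for the single treatments, and the fit on genes alone none for subfamilies. Depth limits genes near the floor, which 308 of the 612 genes raised over 10-fold did not exceed in WT, and the cause of the other changes was not tested.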

Other observations

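Of 29 tested imprinted genes, which are expressed from one parental copy, 8 rose and 1 fell (2 and 0 without the block, 3 and 0 without replicate 2 of the treated KO). Asb4 gave 0.784 and 0.253 CPM in WT and 15.2 and 6.73 CPM in the treated KO (log2FC 4.48 ± 0.73, adjusted p = 0.00577), and Rian, a long RNA of the Dlk1-Dio3 domain, 0 and 0.108 CPM in WT and 3.84 and 13.5 CPM in the treated KO, a ratio of 143 (95% counting interval 48.7 to 698). Phlda2, a restraint on placental growth, fell from 7.84 and 15.7 to 1.25 and 2.43 CPM (log2FC -2.68 ± 0.41, adjusted p = 0.00432). Of 50 histone genes 7 rose and 1 fell (2 and 0 without the block, 2 and 0 from the 4 libraries alone, 1 and 1 without replicate 2 of the treated KO), with Hist1h1c, a linker histone, at 0.697 and 1.08 CPM in WT and 9.34 and 18.2 CPM in the treated KO (log2FC 3.91 ± 0.51, adjusted p = 0.00205) and H2afy, which encodes macroH2A1, lowered from 169.6 and 215 to 59.999 and 97.6 CPM (log2FC -1.32 ± 0.22, adjusted p = 0.00663). Of 40 integrins and cadherins 4 rose, with Cdh6 raised from 0.0871 and 0.361 to 2.18 and 3.31 CPM (log2FC 3.45 ± 0.69, adjusted p = 0.0130), and 4 fell, with Itga3 lowered from 18.5 and 61.4 to 8.72 and 9.85 CPM (log2FC -1.93 ± 0.45, adjusted p = 0.0236). The counts were 1 and 0 without the block, 1 and 0 without replicate 1 of the treated KO, 0 and 0 without its replicate 2, and 3 and 1 without WT replicate 2.

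Interferon-stimulated and RNA-sensing genes were called in both directions, with 3 of 32 raised and 6 lowered (0 and 1 without the block, 0 and 0 without replicate 2 of the treated KO). The sensor RIG-I (Ddx58) gave 9.49 and 6.50 CPM in WT and 49.4 and 13.8 CPM in the treated KO (log2FC 1.72 ± 0.50, adjusted p = 0.0470), while its adaptor Mavs fell from 14.9 and 34.4 to 6.44 and 7.65 CPM (log2FC -1.72 ± 0.32, adjusted p = 0.0104) and the transcription factor Stat2 from 69.3 and 47.3 to 13.9 and 18.8 CPM (log2FC -1.86 ± 0.32, adjusted p = 0.00743). In the MHC class I list H2-K1 fell from 58.95 and 29.4 to 8.72 and 10.99 CPM (log2FC -2.18 ± 0.55, adjusted p = 0.0310), opposite to H2-Q4. Atf3, a stress transcription factor, was raised with replicates far apart, at 5.50 and 88.6 CPM in the treated KO against 0.697 and 1.55 CPM in WT (log2FC 4.90 ± 0.86, adjusted p = 0.00780). Of 13 tested Hox genes 2 fell and none rose, and of 31 other homeobox genes 6 rose and 5 fell. Without the block the homeobox counts were 0 and 1 and no Hox gene was called, and without replicate 2 of the treated KO none of either list was.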
